A study of Lepidobatrachus laevis with 14 samples.

Results

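Pools of stomach tissue were set against libraries of single stomachs in the embryonic stomach of Lepidobatrachus laevis, Budgett's frog, whose larvae are carnivorous. The pools were 4 of the 14 libraries of the series and were chosen by their labels: NNY11 and NNY13 each held the left parts of 5 stomachs, and NNY12 and NNY14 the right parts of 5. The 10 single-stomach libraries, NNY1 to NNY10, held the left (odd numbers) or the right part (even numbers) of 1 stomach each. All tissue came from animals caught in the wild, of wild-type genotype and at Gosner stage 19, and RNA of every library was taken up in Trizol and purified on DirectZol columns with DNase. Strand-specific libraries of the pools were made at HudsonAlpha and those of the single stomachs at the North Carolina State University facility. Pooling, facility and sequencing depth therefore differ together and cannot be told apart. Pooled tissue of 5 animals also averages over animals, so the spread between pools is not the spread between stomachs. The study asks how the left and right stomach come to differ in shape, and the comparison of library sources asks which tissues and which gut genes differ between its 2 kinds of sample.

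The vertebrate stomach forms from the foregut, an endodermal tube wrapped in mesenchyme that gives rise to its smooth muscle, vessels and outer mesothelium. Liver, pancreas and intestine arise from the same tube next to the stomach, while pronephros, heart, body wall muscle and the ciliated epidermis of the amphibian embryo lie close by. Maturation of the gut lining is read from genes of differentiated cells, such as brush border enzymes of the intestine or mucins and proton pumps of the stomach, and identity from transcription factors that act earlier. The rows of the count table carry names of human proteins, so a row stands for frog transcripts that the authors assigned to that protein, and rows of close relatives may share reads.

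Total counts were 12174670 to 20022774 in the pools and 21525694 to 62707669 in the single-stomach libraries, with no overlap. Rows with at least 1 count numbered 21294 to 24331 in the pools and 25617 to 26112 in the single-stomach libraries. Values below are CPM, the count of a row scaled to a common library total, and those of the pools are given in the order NNY11, NNY12, NNY13 and NNY14. The first principal component, with 48.0% of the variance, separated the pools from all single-stomach libraries. NNY13 stood apart from the other 3 pools: its rank correlation (Spearman) with them was 0.921 to 0.930, against 0.964 to 0.974 among those 3. The single-stomach libraries fell into 2 sets, NNY1 to NNY6 and NNY7 to NNY10, so results were also read against each set. Counts for the main gene lists below are given with and without NNY13.

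**Figure D1:**
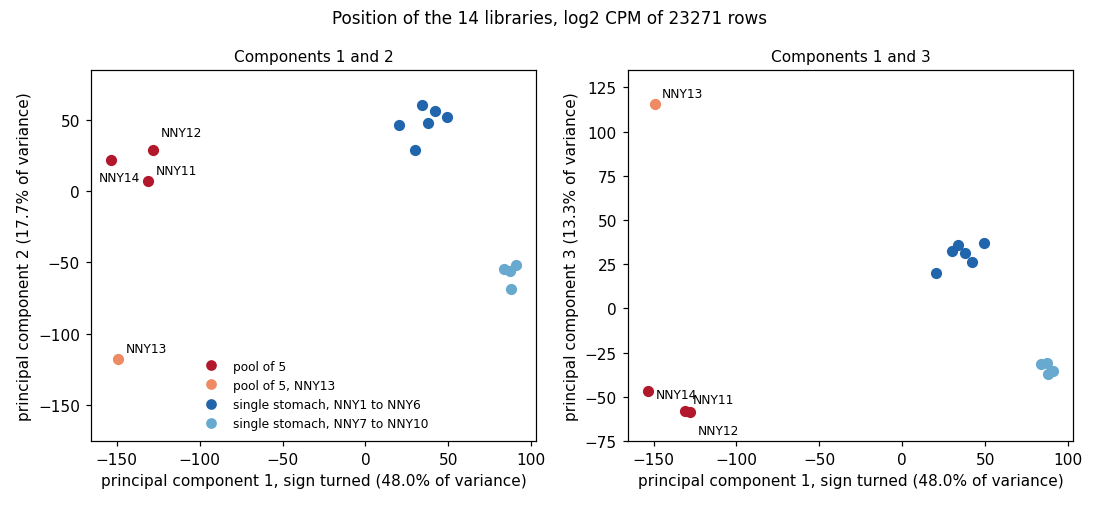
Positions of the 14 libraries on principal components 1 and 2 (left panel) and 1 and 3 (right panel) of log2 CPM over 23271 rows, with the sign of component 1 turned so that pools lie on the left. Each point is a library; NNY11, NNY12 and NNY14 lie together, NNY13 lies apart from them on components 2 and 3, and the single-stomach libraries form the sets NNY1 to NNY6 and NNY7 to NNY10.

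The stomach label was checked first against regulators of the foregut and its mesenchyme. FOXA1, a pioneer factor of gut endoderm, had 311, 211, 289 and 208 CPM in the pools, against 199 to 426 CPM (median 281) in single-stomach libraries. BARX1, a homeobox factor of stomach mesenchyme in the mouse, had 60.7, 80.9, 19.9 and 124 CPM in the pools, against 26.5 to 180 CPM (median 59.7) in single-stomach libraries. For FOXA1 every pool lay inside the range of the single-stomach libraries, but a factor of gut endoderm does not mark the stomach alone. For BARX1, NNY11, NNY12 and NNY14 lay inside that range, and NNY13 lay below every single-stomach library. ATP4A, the catalytic subunit of the gastric proton pump, had 0.173, 0.098, 1.21 and 1.08 CPM in the pools, against 0.387 to 27.2 CPM (median 0.774) in single-stomach libraries. That marker of acid-secreting cells was near 0 in the pools and in most single-stomach libraries, and the difference did not pass the test (adjusted p = 0.155).

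Of 23271 rows tested with edgeR's quasi-likelihood test and side as an additive term, 7082 (30.4%) were called at an adjusted p of 0.05. Of all rows, 12.7% were called higher and 17.7% lower in the pools, or 2955 and 4127 rows. Large differences were mostly of 1 direction: 201 rows were called at least 8-fold higher in the pools and 1070 at least 8-fold lower. The pools were shallower: 203 tested rows had no count in any pool, and none lacked counts in all single-stomach libraries. The 8-fold counts were not repeated at equal depth. Without NNY13, 10.2% of rows were called higher and 16.6% lower. Of the 7082 rows, 5455 were called again in the same direction without NNY13 and 1627 were not called, 876 of them higher with it and 751 lower. Set against NNY1 to NNY6 and against NNY7 to NNY10 separately, 9.71% of rows were called higher than both sets and 14.5% lower than both. Title stems link left and right libraries of the single stomachs, and a fit with the stem as a block called 4704 rows. The left libraries alone gave 2651 calls and the right libraries alone 2614, and 1316 rows were called on both sides, each in the same direction. Thinning every library to the 12174670 counts of the shallowest left 6766 calls, 2807 higher and 3959 lower in the pools. Since 30.4% of all rows were called, the counts of each gene list below are to be read against that share. A list called at about that share or below does not stand out from rows in general. The median log2 fold of all rows was -0.10.

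**Figure D2:**
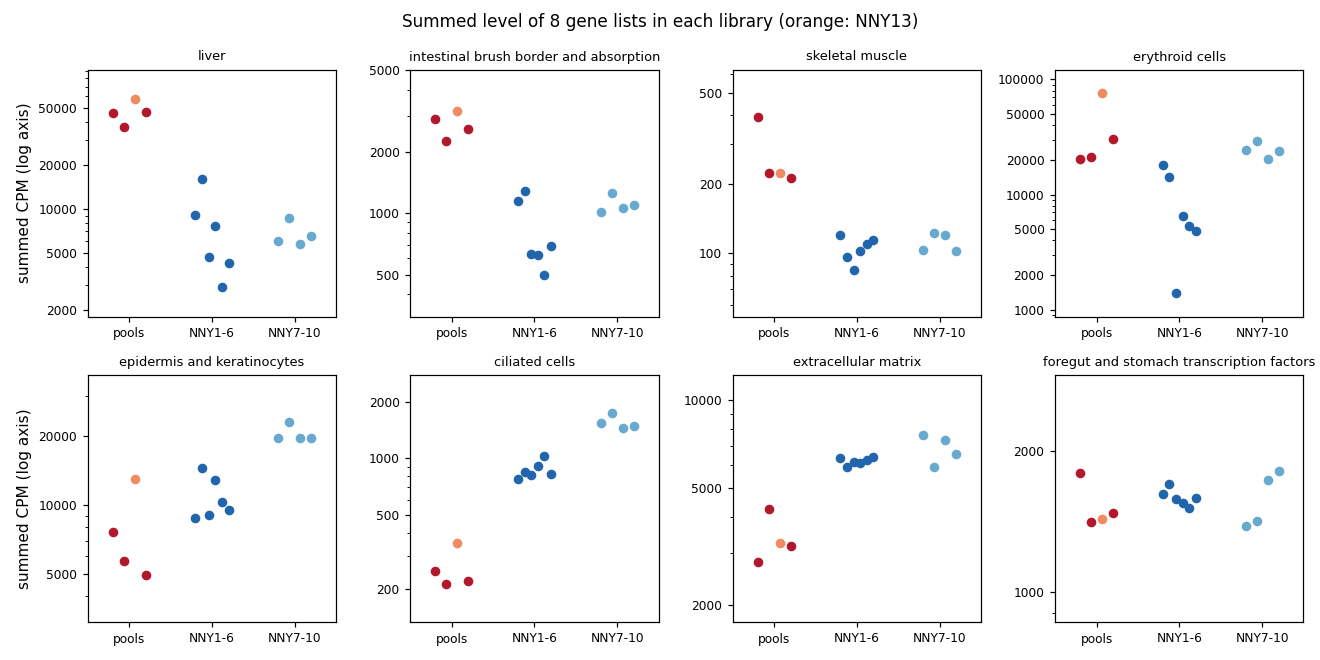
Summed CPM of gene lists in each library (log axis), pools left of single-stomach libraries, with NNY13 and the sets NNY1 to NNY6 and NNY7 to NNY10 in their own colours. Each point is a library; liver and intestinal sums of the 4 pools lie above all single-stomach libraries, and ciliated cell sums lie below all of them.

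Genes of plasma proteins made by the liver were higher in the pools. Of 27 members that passed the filter on low counts, out of 32 listed, 23 rose and 2 fell in the pools, with a median log2 fold of 2.44. Without NNY13, 22 rose and 2 fell (median 2.27), and 22 were higher than both sets of single-stomach libraries. Summed, the list took 45950, 36853, 57227 and 46921 CPM in the pools, against 2899 to 16107 CPM in NNY1 to NNY6 and 5756 to 8701 CPM in NNY7 to NNY10. The groups did not overlap. How many of all rows lie without overlap was not counted, so non-overlap, here and below, is a description without a background share. In bulk tissue, more cells of a type and more RNA per cell cannot be told apart, here or for any list below.

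FGA, the fibrinogen alpha chain of blood clots, had 11886, 9172, 11331 and 10776 CPM in the pools, against 676 to 4798 CPM (median 2050) in single-stomach libraries, a log2 fold of 2.39 ± 0.32 (SE, adjusted p = 0.000126). Every pool lay above every single-stomach library. An exact permutation within sides gave p = 0.00227 for FGA, the smallest that the arrangements allow (adjusted p = 0.00499 over the 22 genes tested in this way). Of those 22 genes, 10 reached that smallest p. The permutation and the edgeR test counted libraries that share a title stem as independent. A2M, a protease inhibitor of plasma, had 643, 447, 670 and 528 CPM in the pools, against 78.9 to 175 CPM (median 108) in single-stomach libraries (log2 fold 2.31, adjusted p = 4.22e-06). SERPINC1, antithrombin, rose by 1.82 and KNG1, kininogen, by 1.56 on the log2 scale, also with no overlap. TF, the iron carrier transferrin, had 48.6, 37.2, 53 and 40.8 CPM in the pools, against 0.276 to 1.66 CPM (median 0.713) in single-stomach libraries, a log2 fold of 5.73 (adjusted p = 5.91e-07). All pools lay above all single-stomach libraries, and the pools differed little among themselves.

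Apolipoproteins, the protein parts of lipid carriers made by liver and intestine, held 4 of the 12 largest increases among genes named by size. APOA1, of high-density lipoprotein, had 6114, 5228, 12178 and 7973 CPM in the pools, against 96.8 to 1103 CPM (median 195) in single-stomach libraries, a log2 fold of 4.76 ± 0.56 (adjusted p = 4.7e-05). APOA4, of chylomicrons, had 744, 644, 942 and 885 CPM in the pools, against 0.0519 to 52.1 CPM (median 4.66) in single-stomach libraries (log2 fold 6.54, adjusted p = 0.000488). The single-stomach libraries differed far more among themselves than the pools did, and 1 of them, NNY2, was the highest for both genes. Without NNY2 the log2 fold of APOA4 was 7.40. APOA5, a regulator of triglyceride breakdown, rose by 5.74 (adjusted p = 0.000219), 6.49 without NNY1 and 6.71 without NNY2. APOC2, the cofactor of lipoprotein lipase, rose by 4.58 (adjusted p = 0.000642) and by 3.95 without NNY13, the pool with the highest value, 941 CPM. APOB, the scaffold of lipoproteins of liver and intestine, had 4436, 4282, 3298 and 3739 CPM in the pools, against 42.1 to 682 CPM (median 126) in single-stomach libraries. These 5 genes did not overlap between the groups.

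Not every liver gene followed. HNF4A, a nuclear receptor shared by liver, stomach and intestine, had 144, 108, 149 and 127 CPM in the pools, against 57.2 to 259 CPM (median 150) in single-stomach libraries (adjusted p = 0.724). CYP2C8, a drug-metabolising enzyme, was called lower (adjusted p = 8.53e-05) on 2 reads in all pools, with 0, 0, 0.152 and 0 CPM there and 1.08 to 3 CPM in single-stomach libraries. AMBP and ITIH2, partners in a plasma protease inhibitor, rose but were low in NNY13 alone: ITIH2 had 703, 577, 36 and 865 CPM in the pools, against 0.237 to 286 CPM (median 11.1) in single-stomach libraries. In NNY13 its value lay inside the range of the single-stomach libraries, while the other 3 pools lay above it.

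Absorptive genes of the intestine were also higher. Of 22 tested members of 32 listed, 11 rose and none fell (median log2 fold 0.95); without NNY13, 9 rose and none fell (median 1.01), and 9 were higher than both sets. APOA4, 1 of the 11, is shared with the liver list. PLSI, plastin-1 of microvilli, is not on the list and was among the largest decreases, given below. The summed level was 2878, 2247, 3154 and 2597 CPM in the pools, against 497.9 to 1277 CPM in NNY1 to NNY6 and 1017 to 1256 CPM in NNY7 to NNY10. VIL1, villin of the brush border core, had 4.85, 6.71, 12.2 and 13.1 CPM in the pools, against 0.104 to 0.647 CPM (median 0.239) in single-stomach libraries, a log2 fold of 5.10 ± 0.41 (adjusted p = 3.8e-06). FABP1, a fatty acid carrier of intestine and liver, had 220, 217, 371 and 330 CPM in the pools, against 34.7 to 104 CPM (median 56.4) in single-stomach libraries (log2 fold 2.29, adjusted p = 2.89e-05). Neither gene overlapped between the groups.

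FABP2, the intestinal fatty acid carrier, rose by 3.81 on the log2 scale and LCT, the lactase of the brush border, by 2.21. LCT had 18.2, 12.2, 29.6 and 25 CPM in the pools, against 3.96 to 5.33 CPM (median 4.47) in single-stomach libraries. LCT did not overlap between the groups, and neither did FABP2. FABP6, the ileal bile acid carrier, had 60.4, 73.1, 4.85 and 196 CPM in the pools, against 0 to 27.7 CPM (median 0.0622) in single-stomach libraries (log2 fold 5.82, adjusted p = 0.00815). Its log2 fold was 8.90 without NNY4, 6.75 without NNY5 and 4.50 without NNY11, and NNY13 lay inside the range of the single-stomach libraries. T4S4, a membrane protein of intestine and liver (TM4SF4), was likewise low in NNY13: it had 87, 68, 1.29 and 101 CPM in the pools, against 0.334 to 23.3 CPM (median 0.720) in single-stomach libraries. Its log2 fold of 4.63 (adjusted p = 0.0039) was 3.31 and no longer called without NNY11, and 6.26 without NNY4. CDX2, the homeobox regulator of intestinal identity, had 87.9, 61.3, 98.1 and 81.2 CPM in the pools, against 11.6 to 55.3 CPM (median 39.7) in single-stomach libraries (log2 fold 1.22, adjusted p = 0.00962). Not all transport genes followed: SLC5A1, the sodium-glucose carrier, had 50.9, 31.4, 13.6 and 35.4 CPM in the pools, against 14.6 to 100 CPM (median 41.7) in single-stomach libraries (adjusted p = 0.404).

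**Figure D3:**
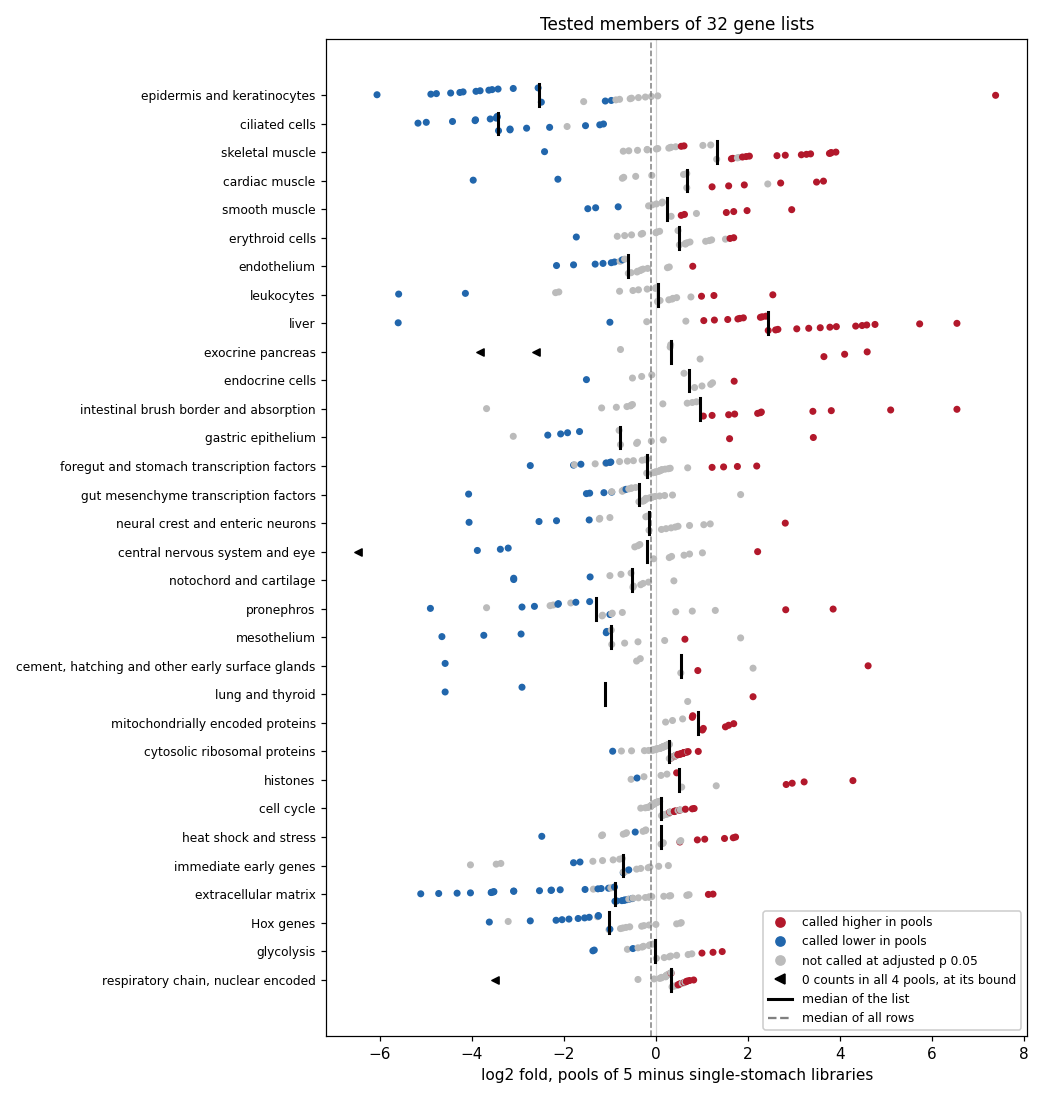
Log2 fold (pool minus single) of the tested members of gene lists, 1 point per gene, with the list median as a bar. Liver and intestinal members lie mostly above 0, with medians of 2.44 and 0.95, and ciliated, epidermal, matrix and Hox members mostly below 0, with medians of -3.43, -2.53, -0.89 and -1.02.

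Genes of the gastric lining did not move as 1 group. Of 13 tested members of 30 listed, 2 rose and 4 fell in the pools, with a median log2 fold of -0.77; without NNY13, 2 rose and 3 fell (median -0.62). Only 2 fell when any 1 of NNY7 to NNY11 or NNY14 was left out. The summed level was 82.3 to 122.3 CPM in the pools, against 107.8 to 243.3 CPM in NNY1 to NNY6 and 430.9 to 550.2 CPM in NNY7 to NNY10, so the distance from the pools differed between the 2 sets. TFF1, a peptide of surface mucous cells, had 18.5, 13.4, 21.1 and 20.2 CPM in the pools, against 0.134 to 7.28 CPM (median 0.785) in single-stomach libraries (log2 fold 3.42, adjusted p = 0.00197). Its log2 fold was 4.03 without NNY6, and no pool overlapped with a single-stomach library. MUC5AC, the secreted mucin of the same cells, had 4.42, 1.08, 1.67 and 2.31 CPM in the pools, against 3.60 to 16.5 CPM (median 8.19) in single-stomach libraries, and fell by 1.92 (adjusted p = 0.0114). These 2 products of surface mucous cells moved in opposite directions. KCNQ1, a potassium channel of acid-secreting and other epithelia, fell by 1.66 (adjusted p = 0.00291). VSIG1, a junction protein of gastric epithelium, rose by 1.6 (adjusted p = 0.0159), with NNY13 at 0.379 CPM, and its call was lost when NNY11 or NNY12 was left out (log2 fold 1.41 and 1.43). CAPN8, a stomach protease, and CHIA, an acidic chitinase, were lower (adjusted p = 0.0407 and 0.039), and neither passed without NNY13 (adjusted p = 0.0642 and 0.093). GIF, TFF3, MUC6, SLC26A7 and CTSE had no counts in the pools and failed the filter on low counts; the single-stomach libraries had at most 0.334 CPM of any of them, except SLC26A7 with up to 3.39 CPM (median 0.0148).

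Transcription factors of the foregut and stomach were called about as often as rows in general. Of 33 tested of 36 listed, 4 rose and 6 fell (median log2 fold -0.20), which is 10 of 33 beside 30.4% of all rows; without NNY13, 4 rose and 4 fell (median -0.03), and 3 fell without NNY14. GATA4 had 113, 86.4, 66.9 and 92.3 CPM in the pools, against 64.2 to 128 CPM (median 94) in single-stomach libraries, and GATA6 had 169, 137, 127 and 141 CPM in the pools, against 84.2 to 189 CPM (median 147) in single-stomach libraries. Both are zinc finger factors of gut endoderm, and their groups overlapped fully. SOX2, which sets stomach against intestine in the mouse, had 65.9, 49.4, 42.4 and 35.6 CPM in the pools, against 4.63 to 129 CPM (median 46.4) in single-stomach libraries (adjusted p = 0.845). PDX1, of antrum, duodenum and pancreas, was not called either (log2 fold 0.31, adjusted p = 0.489). A p above the threshold does not show that these levels were equal.

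Those that rose were CDX2, given above, HNF4G, PROX1 and NKX6-3. HNF4G, a nuclear receptor of the absorptive intestine, had 4.24, 5.98, 4.24 and 9.23 CPM in the pools, against 0.651 to 2.97 CPM (median 0.973) in single-stomach libraries (log2 fold 2.19, adjusted p = 0.00025). PROX1, of liver, pancreas and lymphatic vessels, had 47.6, 35.8, 8.94 and 37.2 CPM in the pools, against 3.09 to 32.6 CPM (median 6.47) in single-stomach libraries, with NNY13 inside their range. NKX6-3, a homeobox factor of the gastric antrum in the mouse, had 17.2, 18, 37.0 and 28.1 CPM in the pools, against 2.64 to 14.2 CPM (median 9.04) in single-stomach libraries (log2 fold 1.47, adjusted p = 0.00657). FOXA2, partner of FOXA1, fell by 0.98 (adjusted p = 0.00979). HNF4G, NKX6-3 and CDX2, 3 of the 4 members that rose, lay above every single-stomach library in all 4 pools. PDX1 and HNF4A, also of antrum or intestine, were not called, and 20 of the 33 tested members had a fitted log2 fold below 0. In the mesenchyme list, none of 31 tested members of 34 rose and 6 fell, beside 30.4% of all rows (median log2 fold -0.37). Without NNY13, 3 fell (median -0.22), as also without NNY11. FOXF1, a forkhead factor of gut mesenchyme, had 70.4, 102, 56.2 and 98.7 CPM in the pools, against 39.2 to 223 CPM (median 132) in single-stomach libraries (adjusted p = 0.315). GLI3, of the hedgehog pathway, had 17.5, 23.0, 11.4 and 11.8 CPM in the pools, against 25 to 47.2 CPM (median 34.2) in single-stomach libraries, and fell by 1.13 (adjusted p = 0.00164). TLX1, needed for the spleen in the mouse, had 0, 0, 1.14 and 0 CPM in the pools, against 0.977 to 7.46 CPM (median 4.67) in single-stomach libraries (adjusted p = 0.0047), and only NNY13 held any read.

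Enzymes of the exocrine pancreas were low throughout. Of 9 tested members of 22 listed, 3 rose and none fell, beside 30.4% of all rows (median log2 fold 0.32). Without NNY13, 3 rose and 2 fell (median 0.02). The sums were 43.1 to 140.7 CPM in the pools, against 6.388 to 22.13 CPM in NNY1 to NNY6 and 10.49 to 15.08 CPM in NNY7 to NNY10. PLA2G1B, a secreted phospholipase, supplied most of it with 41.2, 33.5, 101 and 111 CPM in the pools, against 0.995 to 8.44 CPM (median 3.19) in single-stomach libraries (log2 fold 4.10, adjusted p = 6.58e-05). CTRB1, chymotrypsinogen, had 3.29, 2.55, 3.11 and 9.74 CPM in the pools, against 0 to 0.522 CPM (median 0.121) in single-stomach libraries (log2 fold 4.59, adjusted p = 6.8e-05). The groups did not overlap for either enzyme. CPA1, carboxypeptidase A1, rose by 3.65 (adjusted p = 0.00194) and by 2.80 without NNY14, with no read in NNY13. PRSS1, trypsinogen, and PNLIP, pancreatic lipase, had no read in any pool. Of 10 tested endocrine members of 24 listed, CCK was called higher and ISL1 lower, beside 30.4% of all rows. Neither was called without NNY13. ISL1, a factor of islets and gut mesenchyme, fell by 1.51 (adjusted p = 0.0319), with adjusted p = 0.0981 without NNY13. Its call was also lost without NNY4, NNY6, NNY11 or NNY12, with log2 folds of -1.39, -1.39, -1.47 and -1.57. INS, insulin, had 17, 45.9, 4.02 and 102 CPM in the pools, against 6.03 to 81.5 CPM (median 13.6) in single-stomach libraries (log2 fold 1.0, adjusted p = 0.391, and 0.17 without NNY14).

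Genes of skeletal muscle were higher in the pools. In this list, 16 of 33 tested members (39 listed) rose and 1 fell (median log2 fold 1.32); without NNY13, 15 rose and 1 fell (median 0.88), and 13 were higher than both sets. The summed level was 392.8, 223.6, 222.6 and 213.7 CPM in the pools, against 85.12 to 119.9 CPM in NNY1 to NNY6 and 102.4 to 122.3 CPM in NNY7 to NNY10. All pools lay above all single-stomach libraries, with NNY11 apart from the other 3. MYL1, a light chain of fast muscle myosin, had 58.1, 34.9, 39.9 and 39.5 CPM in the pools, against 7.46 to 15.8 CPM (median 10.9) in single-stomach libraries, a log2 fold of 1.96 ± 0.20 (adjusted p = 2.15e-05). TNNI2, troponin I of fast fibres, had 33.8, 10.7, 13.9 and 4.40 CPM in the pools, against 0.207 to 2.07 CPM (median 0.963) in single-stomach libraries (log2 fold 3.80, adjusted p = 9.19e-05). ENO3, the enolase of muscle, rose by 3.91 and MYLPF, a fast regulatory light chain, by 3.27. MYH1, a fast myosin heavy chain, was the exception: it fell by 2.42 (adjusted p = 0.000599), with 1.99, 5.19, 4.93 and 1.44 CPM in the pools, against 7.80 to 34.5 CPM (median 19) in single-stomach libraries. Myosin heavy chains are close in sequence, MYH2, MYH4 and MYH8 were called higher, and reads may have been split among their rows.

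Of 16 tested cardiac members of 22 listed, 6 rose and 2 fell, beside 30.4% of all rows (median log2 fold 0.67). Without NNY13, 7 rose and 2 fell (median 1.0). Only 2 rose without NNY11 and 3 without NNY14. The sums overlapped, with 152 to 524.8 CPM in the pools and NNY13 the lowest, against 97.5 to 333.2 CPM in NNY1 to NNY6 and 202.4 to 274.7 CPM in NNY7 to NNY10. TNNT2, cardiac troponin T, had 33.1, 41.9, 26.6 and 58.9 CPM in the pools, against 8.43 to 26 CPM (median 10.6) in single-stomach libraries (log2 fold 1.58, adjusted p = 0.000322). MYL7, the atrial light chain, had 31.7, 28.3, 3.94 and 48.7 CPM in the pools, against 0.0326 to 20.5 CPM (median 0.249) in single-stomach libraries (adjusted p = 0.0314). MYH6, the atrial myosin heavy chain, had 101, 140, 5.99 and 185 CPM in the pools, against 0.587 to 68.4 CPM (median 4.34) in single-stomach libraries (log2 fold 2.71, adjusted p = 0.0375). In NNY13 both fell inside the range of the single-stomach libraries, and the call of MYH6 was lost when any 1 of 8 libraries was left out (NNY1, NNY3, NNY7, NNY9, NNY10, NNY11, NNY12 or NNY14), with log2 folds of 1.77 without NNY11 and 2.58 to 2.86 without the others. IRX4, a ventricular homeobox factor, fell by 3.97 (adjusted p = 0.000469) and TNNC1, troponin C of heart and slow muscle, by 2.13 (adjusted p = 0.031; 3.76 without NNY13).

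Smooth muscle, which the stomach wall itself contains, was mixed: 6 of 16 tested members (18 listed) rose and 3 fell (median log2 fold 0.23), and 6 rose and 2 fell without NNY13. Without NNY14, 3 rose and 1 fell, and without scaling between libraries 3 rose and 3 fell. ACTG2, the actin of visceral smooth muscle, had 37.2, 20.6, 13.9 and 29.7 CPM in the pools, against 2.38 to 15.2 CPM (median 4.98) in single-stomach libraries (log2 fold 1.98, adjusted p = 0.00169). LMOD1, a thin-filament protein of smooth muscle, rose by 1.53 (adjusted p = 0.00338) and SYNPO2, a Z-disc and actin bundling protein, by 2.95 (adjusted p = 0.000118). The actin-binding protein FLNA, made by many cells, had 204, 341, 165 and 224 CPM in the pools, against 411 to 1132 CPM (median 531) in single-stomach libraries and fell by 1.48 (adjusted p = 0.00167). The list summed to 995.3 to 1292 CPM in the pools, against 1201 to 1682 CPM in NNY1 to NNY6 and 2364 to 2709 CPM in NNY7 to NNY10.

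Few genes of red blood cells were called. Of 21 tested erythroid genes of 25 listed, 2 rose and 1 fell, beside 30.4% of all rows. The sums were 20519, 21103, 75925 and 30325 CPM in the pools, against 1400 to 18076 CPM in NNY1 to NNY6 and 20475 to 29304 CPM in NNY7 to NNY10. Pools overlapped with NNY7 to NNY10 but not with NNY1 to NNY6. HBA1, an alpha globin, had 1012, 1106, 3689 and 1488 CPM in the pools, against 224 to 913 CPM (median 644) in single-stomach libraries, a log2 fold of 1.61 (adjusted p = 0.00476). Without NNY13 it was 0.97 (adjusted p = 0.0499). HBE1, a beta-type embryonic globin, had 10748, 11014, 41898 and 15562 CPM in the pools, against 392 to 14919 CPM (median 6634) in single-stomach libraries (adjusted p = 0.109). ANK1, the ankyrin of red cells, was called higher and TAL1, a blood and vessel factor, lower, and neither was called without NNY13 (adjusted p = 0.143 and 0.0912).

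In the endothelial list 7 of 21 tested members (25 listed) fell and 1 rose, beside 30.4% of all rows (median log2 fold -0.60). Without NNY13, 5 fell and 1 rose (median -0.42). With the title stem as a block 4 fell, as also without NNY11 or NNY12. With the single-stomach sets as separate groups in one fit, the median log2 fold was -0.69 against NNY1 to NNY6 and 0.01 against NNY7 to NNY10. When each set was fitted alone with the pools, 11 members were called lower against NNY1 to NNY6 and 7 against NNY7 to NNY10. The sums were 479.4 to 921 CPM in the pools, against 876.3 to 1449 CPM in NNY1 to NNY6 and 737.1 to 888.6 CPM in NNY7 to NNY10. SOX7, a factor of early vessels, had 6.76, 10.2, 12 and 10.9 CPM in the pools, against 33.9 to 60.3 CPM (median 43.4) in single-stomach libraries (log2 fold -2.16, adjusted p = 1.09e-05). APLNR, the apelin receptor, fell by 1.32 (adjusted p = 0.000115), and PECAM1, a junction protein of endothelium, rose by 0.80 (adjusted p = 0.0223). SOX7 and APLNR did not overlap between the groups. Of 21 tested leukocyte genes of 25 listed, 3 rose and 2 fell, beside 30.4% of all rows. CEBPA, a factor of myeloid cells and also of liver, had 65.7, 57.9, 73.2 and 56.4 CPM in the pools, against 6.63 to 20.6 CPM (median 9.72) in single-stomach libraries (log2 fold 2.54, adjusted p = 1.1e-05). MPO, the peroxidase of neutrophils, fell by 4.14 (adjusted p = 0.00146), and MARCO, a macrophage receptor, was called lower on 2 reads in all pools.

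Genes of ciliated cells were lower in the pools as a list. The list does not tell which tissue the ciliated cells belonged to. Of 18 tested members of 20 listed, 17 fell and none rose (median log2 fold -3.43), beside 17.7% of all rows; without NNY13, 18 fell (median -4.03), and 17 were lower than both sets. The summed level was 214.6 to 352.7 CPM in the pools, against 774 to 1028 CPM in NNY1 to NNY6 and 1455 to 1742 CPM in NNY7 to NNY10. DNAH9, a dynein heavy chain of the ciliary outer arm, had 7.28, 2.30, 6.59 and 2.96 CPM in the pools, against 61.9 to 267 CPM (median 89.9) in single-stomach libraries (log2 fold -4.99, adjusted p = 7.04e-05). FOXJ1, the regulator of motile cilia, had 1.30, 0.392, 4.62 and 0 CPM in the pools, against 10.4 to 37.8 CPM (median 16.4) in single-stomach libraries (log2 fold -3.92, adjusted p = 0.0018). ROPN1L, of the ciliary radial spoke, fell by 3.93, or by 4.77 without NNY13. TUBA1A, an alpha tubulin that many cells make, fell least among the members named, by 1.22. No member overlapped between the groups among these 4.

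Most epidermal genes were lower as well. Of 26 tested members of 29 listed, 16 fell and 1 rose (median log2 fold -2.53); without NNY13, 16 fell and 1 rose (median -3.09), and 15 were lower than both sets. TP63, the regulator of stratified epithelium, had 0.0866, 0, 0.455 and 0.144 CPM in the pools, against 2.38 to 21.9 CPM (median 8.61) in single-stomach libraries (log2 fold -6.06, adjusted p = 0.000132). The 3 pools other than NNY13 held 3 reads of it in all. KRT5, a keratin of basal epidermis, had 8.84, 3.18, 87.5 and 2.60 CPM in the pools, against 164 to 1016 CPM (median 469) in single-stomach libraries (log2 fold -4.77, and -6.86 without NNY13). GRHL3, a barrier factor, fell by 4.26 (4.91 without NNY13). FOXI1, the regulator of ionocytes of skin and kidney, had 0.347, 0.392, 2.80 and 0 CPM in the pools, against 9.84 to 37.4 CPM (median 24.1) in single-stomach libraries (log2 fold -4.89, and -6.58 without NNY13). In each, NNY13 was the highest pool and still lay below all single-stomach libraries. Its summed level of the list was 12960 CPM, inside the 8837 to 14461 CPM of NNY1 to NNY6, while the other pools had 4961 to 7611 CPM and NNY7 to NNY10 had 19639 to 23128 CPM. Most of the sum of every pool came from KRT8, a keratin given below, so the sum says little about the other members.

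KRT8 and KRT19, keratins of simple epithelium in the same list, behaved otherwise. They were the only 2 of 26 tested members with a fitted log2 fold above 0. The other 24 were fitted below 0, among them KRT18, also a keratin of simple epithelium. KRT8 had 6122, 4466, 9271 and 3876 CPM in the pools, against 2105 to 9934 CPM (median 4963) in single-stomach libraries (log2 fold 0.04, adjusted p = 0.954). KRT19, of gut and duct epithelium, was the 1 member that rose and had the largest increase among genes named by size: 58.8, 68.7, 186 and 161 CPM in the pools, against 0.139 to 3.10 CPM (median 0.536) in single-stomach libraries, a log2 fold of 7.38 ± 0.65 (adjusted p = 7.42e-06). The lowest pool was far above the highest single-stomach library. KRT19 belongs to a family of close sequences, and reads of related keratins could have been assigned to its row.

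**Figure D4:**
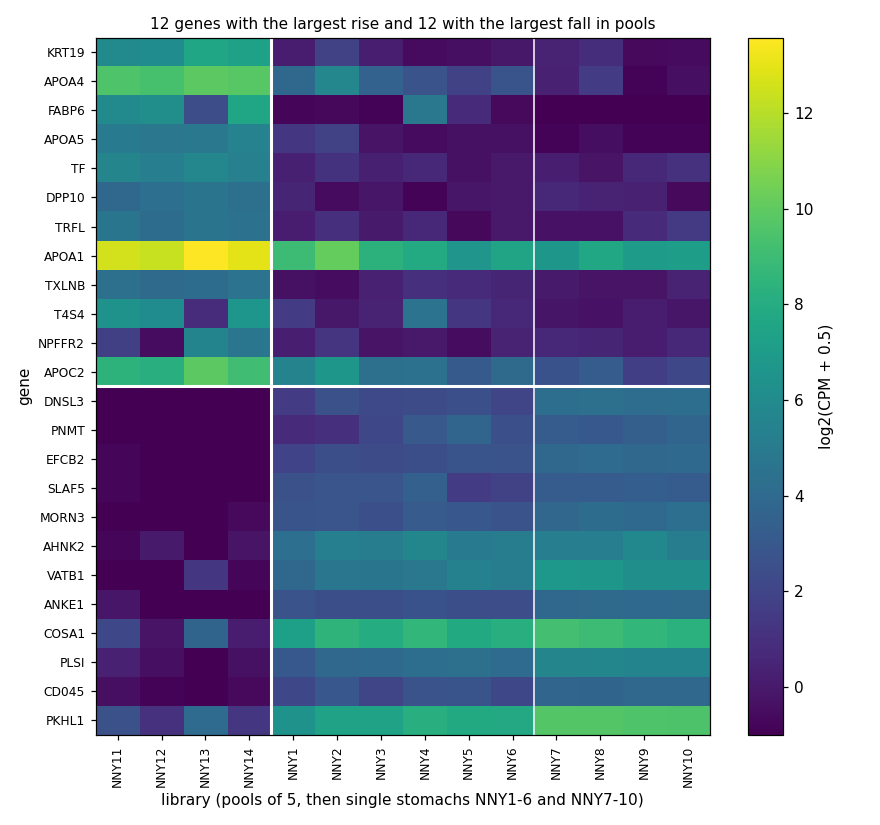
CPM on a log scale, shown for each library, of the genes with the largest increases and decreases in the pools. KRT19 and TF are above all single-stomach libraries in every pool, AHNK2 and COSA1 below them, and T4S4 and FABP6 show NNY13 low beside the other pools.

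Several of the largest decreases named by size were of genes with almost no reads in the pools. DNSL3, a secreted DNase (DNASE1L3), had no read in any pool, against 2.48 to 20.7 CPM (median 5.52) in single-stomach libraries, at least 201-fold lower with a floor of 3 counts over the 4 pools. PNMT, the enzyme that makes adrenaline, also had none, against 1.17 to 13 CPM (median 7.69) in single-stomach libraries, at least 142-fold lower. Among 23271 rows, 203 had no count in any pool and none had no count in all single-stomach libraries, whose depth was greater. EFCB2, a calcium-binding ciliary protein, and SLAF5, a leukocyte surface receptor (CD84), had 1 read each in all pools, and MORN3, a MORN-repeat protein, had 2; their single-stomach values were at least 3.32, 2.46 and 5.47 CPM. COSA1, a collagen of type XXVIII, had 3.99, 0.343, 12.7 and 0.577 CPM in the pools, against 151 to 600 CPM (median 337) in single-stomach libraries, and fell by 6.63 (7.92 without NNY13). PKHL1, a large receptor-like protein (PKHD1L1), fell by 6.22 (7.16 without NNY13). VATB1, a proton pump subunit of ionocytes and kidney (ATP6V1B1), had 0, 0, 1.97 and 0.0721 CPM in the pools, against 14.5 to 107 CPM (median 37.9) in single-stomach libraries (adjusted p = 0.000305). Each of COSA1, PKHL1 and VATB1 was below all single-stomach libraries in every pool, with NNY13 the highest pool. AHNK2, a giant scaffold protein (AHNAK2), fell by 7.14, or 7.87 without NNY12, and PLSI, plastin-1 of microvilli, by 6.52, or 7.30 without NNY11.

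DPP10, TXLNB, NPFFR2 and TRFL completed the 12 largest increases. DPP10, a potassium channel subunit of neurons, had 14.1, 19.3, 24.1 and 20.1 CPM in the pools, against 0.0431 to 1.09 CPM (median 0.448) in single-stomach libraries (log2 fold 5.28, adjusted p = 4.98e-06). TXLNB, taxilin beta of striated muscle, had 20.2, 15.9, 17.2 and 22.7 CPM in the pools, against 0.196 to 1.55 CPM (median 0.652) in single-stomach libraries (log2 fold 4.76, adjusted p = 4.98e-06). These 2 were nearly even among the pools. NPFFR2, a neuropeptide receptor, was uneven, with 2.86, 0.196, 47.7 and 25.7 CPM in the pools, against 0.193 to 1.92 CPM (median 0.722) in single-stomach libraries (log2 fold 4.61, and 3.19 without NNY13). TRFL, lactotransferrin, close in sequence to transferrin, rose by 4.82 (adjusted p = 1.7e-05), and part of its reads may belong to the same frog gene as those of TF.

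Matrix genes were mostly lower in the pools. Of 47 tested members of 50 listed, 27 fell and 2 rose (median log2 fold -0.89); without NNY13, 22 fell and 2 rose (median -0.58), and 22 were lower than both sets. The summed level was 2802 to 4248 CPM in the pools, against 5928 to 6382 CPM in NNY1 to NNY6 and 5907 to 7639 CPM in NNY7 to NNY10. COL1A1, of the fibrillar collagen of skin and connective tissue, had 22.4, 26.3, 164 and 26.1 CPM in the pools, against 245 to 954 CPM (median 612) in single-stomach libraries (log2 fold -3.52, adjusted p = 0.000399). COL2A1, of cartilage and notochord, had 6.24, 11.1, 20.8 and 7.79 CPM in the pools, against 52.7 to 154 CPM (median 89.8) in single-stomach libraries (log2 fold -3.09, adjusted p = 3.18e-05). NNY13 was the highest pool for both collagens and lay below all single-stomach libraries. LUM, the proteoglycan lumican, fell by 4.32, THBS1, thrombospondin, by 2.27 and COL14A1, a collagen on fibril surfaces, by 3.58 (4.22 without NNY13). LAMB2, a laminin chain of basement membranes, was 1 of the 2 that rose, with 17.2, 13.7, 24.1 and 16.7 CPM in the pools, against 6.03 to 9.89 CPM (median 7.31) in single-stomach libraries (log2 fold 1.24, adjusted p = 0.000153), and COL6A2 was the other (log2 fold 1.14, adjusted p = 0.0354).

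Hox genes, which mark position along the body, were called lower and not higher in the pools when all libraries were used. Of 25 tested members of 38 listed, 11 fell and none rose (median log2 fold -1.02); without NNY13, 10 fell (median -0.99). Against NNY1 to NNY6 alone, however, 5 members were called higher beside 11 lower. HOXB6 had 1.99, 3.04, 2.20 and 1.95 CPM in the pools, against 5.91 to 12.2 CPM (median 9.82) in single-stomach libraries (log2 fold -2.04, adjusted p = 2.7e-05). HOXC4 had 12, 14.9, 10.1 and 12.2 CPM in the pools, against 19.7 to 28.6 CPM (median 24.7) in single-stomach libraries (log2 fold -1.0, adjusted p = 0.00018). All called members belonged to paralogue groups 1 to 9, and the calls were spread over all 4 clusters. The summed level was 101.7 to 191.3 CPM in the pools, against 147 to 259.9 CPM in NNY1 to NNY6 and 250.1 to 290.1 CPM in NNY7 to NNY10, so pools and NNY1 to NNY6 overlapped.

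Called genes of kidney and mesothelium were mainly lower, and nerve genes were called in both directions. In the pronephric list, 8 of 22 tested members (25 listed) fell and 2 rose, beside 30.4% of all rows (median log2 fold -1.30). Without NNY13, 7 fell and 3 rose. SLC5A8, a carrier of short-chain acids in the tubule, had 11.1, 11.4, 15.2 and 7.36 CPM in the pools, against 23.7 to 112 CPM (median 64.4) in single-stomach libraries (log2 fold -2.64, adjusted p = 0.000398). The 2 that rose, AMN and PDZK1, are also made by the absorptive intestine: PDZK1, a scaffold of brush border carriers, had 66.3, 48.6, 87.4 and 87.5 CPM in the pools, against 1.54 to 38.1 CPM (median 5.19) in single-stomach libraries (log2 fold 2.82, adjusted p = 0.00283). In the mesothelial list 5 of 12 tested members (14 listed) fell and 1 rose, beside 30.4% of all rows. Without NNY13, 5 fell and none rose. SEMA3D, a guidance cue, had 28.2, 31.9, 30 and 21.3 CPM in the pools, against 48.5 to 80.8 CPM (median 54.2) in single-stomach libraries (log2 fold -1.07, adjusted p = 0.000257). SYT1, a synaptic vesicle protein, had 3.99, 2.30, 8.11 and 2.96 CPM in the pools, against 13.7 to 56.3 CPM (median 37.5) in single-stomach libraries (log2 fold -3.21, adjusted p = 0.000154). GAD1, which makes the transmitter GABA, had no read in any pool, against 0.945 to 8.18 CPM (median 3.20) in single-stomach libraries, at least 88.5-fold lower. Of the neural crest list, SNAI2, a factor of migrating crest, fell by 2.16 (adjusted p = 0.000939), and S100B, of glia, rose by 2.81 (adjusted p = 3.89e-05). In that list 1 of 19 tested members rose and 4 fell (median log2 fold -0.15), beside 30.4% of all rows, and without NNY13, 2 rose and 3 fell (median 0.31). Its sums overlapped, with 218 to 288.6 CPM (median 239.5) in the pools, against 172.5 to 270.3 CPM (median 197.6) in single-stomach libraries. In the list of central nervous system and eye 1 of 14 rose and 4 fell, beside 30.4% of all rows (median -0.20). Without NNY13, 1 rose and 2 fell (median 0.01). Only 2 members were called lower without any 1 of NNY11, NNY12 or NNY14 too. The list had sums of 22.35 to 32.28 CPM in the pools, against 46.36 to 71.37 CPM in single-stomach libraries. In the notochord and cartilage list none of 12 rose and 3 fell, beside 30.4% of all rows. Its sums were 88.28 to 103.7 CPM in the pools, against 270.4 to 423.7 CPM in single-stomach libraries.

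The remaining tissue lists were short. Of 7 tested genes of cement, hatching and other early surface glands, 2 rose and 1 fell, and 2 rose and none fell without NNY13. GJB1, a gap junction protein of liver and other epithelia, was the most abundant of them, with 4038, 2842, 5476 and 3897 CPM in the pools, against 1601 to 3413 CPM (median 2055) in single-stomach libraries (log2 fold 0.91, adjusted p = 0.00225). Of 4 tested lung and thyroid genes, 1 rose and 2 fell. ABCA3, a lipid carrier of lung surfactant cells, was the 1 that rose, with 187, 187, 341 and 188 CPM in the pools, against 35.3 to 94.8 CPM (median 45.5) in single-stomach libraries (log2 fold 2.11, adjusted p = 7.76e-05). For ABCA3 the groups did not overlap, with NNY13 the highest.

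Among lists of cell state, mitochondrially encoded genes stood higher, while cell cycle, immediate early, glycolytic and cytosolic ribosomal genes were called no more often than the 30.4% of all rows. All 7 called mitochondrially encoded genes, of 10 tested, rose (median log2 fold 0.91), 5 of them without NNY13 (median 0.72), and the sums were 73594 to 110411 CPM in the pools, against 52363 to 66417 CPM in NNY1 to NNY6 and 39217 to 50044 CPM in NNY7 to NNY10. MT-CO3, a cytochrome oxidase subunit, had 13980, 12994, 21925 and 17163 CPM in the pools, against 6061 to 10705 CPM (median 8291) in single-stomach libraries (log2 fold 1.01, adjusted p = 0.000203). HSPA5 and HSP90B1, chaperones of the endoplasmic reticulum where secreted proteins fold, rose by 1.49 and 1.68: HSP90B1 had 1237, 1201, 962 and 1226 CPM in the pools, against 212 to 610 CPM (median 359) in single-stomach libraries (adjusted p = 3.89e-05). HSPA8, the cytosolic relative of HSPA5, fell by 0.45 (adjusted p = 0.00203). In the whole stress list 6 of 21 tested members rose and 2 fell, and without NNY13, 3 rose and 2 fell. It was also 3 that rose without NNY1, NNY4 or NNY6. Of 43 tested cell cycle genes, 8 rose and none fell, beside 12.7% of all rows called higher, and 5 rose without NNY14. Their median log2 fold of 0.12 turned to -0.07 without scaling between libraries. RRM2, of nucleotide synthesis, had 273, 208, 283 and 248 CPM in the pools, against 116 to 181 CPM (median 139) in single-stomach libraries (log2 fold 0.83, adjusted p = 0.000312). HIST1H4A, a replication histone, rose by 4.28 (adjusted p = 7.37e-05), in a histone list in which 5 of 12 tested members rose and 1 fell. Messages of replication histones mostly lack a poly(A) tail, and the labels do not give how RNA was selected. Of 21 tested immediate early genes, 4 fell and none rose, IER3 by 1.65 (adjusted p = 0.00012). Of 75 cytosolic ribosomal proteins, 20 rose and 1, RPL19, fell with NNY13, beside 12.7% of all rows called higher and 17.7% lower. The fitted log2 fold was above 0 for 64 of the 75. Without NNY13, 6 rose and 2 fell, beside 10.2% and 16.6% of all rows. Without NNY14, 8 of them rose, and without NNY11, 32. In the glycolytic list 3 of 20 tested members rose and 3 fell, and 5 rose and 2 fell without NNY13. The glycolytic sums were 2403 to 5127 CPM in the pools, against 1301 to 2286 CPM in single-stomach libraries. Among 29 nuclear-encoded respiratory chain genes, 9 rose and 1 fell, and 5 rose and 2 fell without NNY13. The 1 that fell, COX4I1, an oxidase subunit, had no read in any pool but no more than 1.05 CPM in any single-stomach library.

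NNY13 was compared with the other 3 pools list by list, over the tested members with a mean CPM of at least 5. Its median log2 ratio to their mean was 0.94 over epidermal, 1.41 over ciliated and 1.08 over erythroid genes. Of these, 11, 13 and 12 members were more than 2-fold higher in NNY13. The median was -1.06 over Hox genes and -0.82 over mesenchyme factors, with 7 and 11 members more than 2-fold lower. It was also low over endocrine (-2.44), cardiac (-1.56) and mesothelial genes (-1.01), with 3, 5 and 5 members more than 2-fold lower. The mesenchyme list shares 4 genes with the cardiac, 3 with the mesothelial and 1 with the endocrine list. The same gene may therefore be counted in more than 1 of these lists. In the cardiac list 1 member and in the mesothelial list 2 were more than 2-fold higher, MSLN among the latter. The mesothelial sum of NNY13, 525.1 CPM, lay inside the 522.6 to 602.2 CPM of the other pools. The median of 1.27 for central nervous system and eye rested on few genes, with 1 member more than 2-fold higher. The endocrine median also rested on few genes. In the endothelial list the median was -0.47, with 9 members more than 2-fold lower and none higher. In the matrix list it was -0.11, with 11 members more than 2-fold higher and 9 lower. For the liver and intestinal lists the median was 0.33 and 0.31. By these medians NNY13 stood above the other pools in epidermal, ciliated and red cell genes. It stood below them in Hox, mesenchyme, endocrine and cardiac genes, and differed less in liver and intestinal genes. Mesothelial genes were mixed, with a low median but MSLN high. The same ratio over all rows, and the number of members that passed the CPM minimum, were not counted. The counts of members are therefore a description without a background share.

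The 10 genes highest in NNY13 relative to the other pools were chosen for that ratio, so their values are a description. KRT15, a keratin of basal cells, had 72.2, 24.1, 1249 and 16.4 CPM in the pools, against 1463 to 4253 CPM (median 3174) in single-stomach libraries. ITLN1, a secreted lectin, had 18.9, 6.17, 310 and 4.83 CPM in the pools, against 430 to 1315 CPM (median 877) in single-stomach libraries, and its paralog ITLN2 had 48.3, 18.9, 606 and 9.81 CPM in the pools, against 981 to 3832 CPM (median 2475). The 3 showed 1 order: single-stomach libraries, NNY13, other pools. With NNY13 included the log2 folds were -3.63, -3.82 and -4.19, and without it -6.42, -6.55 and -6.58. MSLN, named for mesothelium, followed the same order (6.50, 2.06, 106 and 0.649 CPM in the pools, against 196 to 630 CPM in single-stomach libraries; log2 fold -4.65, and -7.45 without NNY13), as did ATP1B2, a sodium pump subunit (log2 fold -4.90, and -8.13 without NNY13). MSMB, a secreted protein, was at 0.173, 0, 18.9 and 0 CPM in the pools, against 3.29 to 26.9 CPM (median 8.63) in single-stomach libraries, so that NNY13 alone among the pools lay inside their range. At the other end, RELN, the secreted protein reelin, had 82.6, 49.6, 0.909 and 51.4 CPM in the pools, against 0.799 to 65.3 CPM (median 4.47) in single-stomach libraries.

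**Figure D5:**
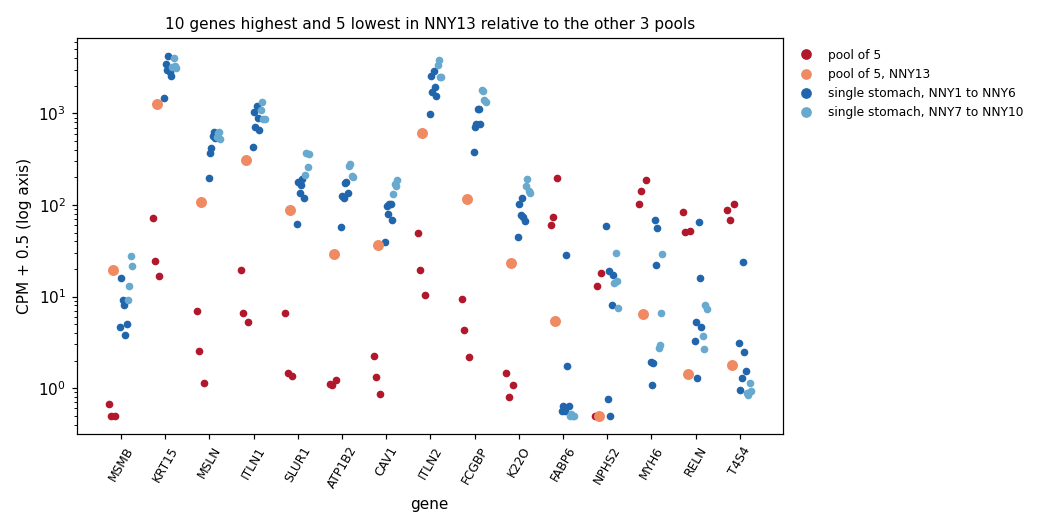
CPM (log axis) of the genes with the highest and lowest ratio of NNY13 to the other 3 pools, 1 point per library, pools left of single-stomach libraries. KRT15, ITLN1 and MSLN have NNY13 between the other pools and the single-stomach libraries, and RELN has NNY13 near the lowest single-stomach library.

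The difference between pools and single-stomach libraries was also tested for dependence on side. The interaction passed for none of 23271 rows with edgeR, with 1785 rows at an unadjusted p under 0.05, and for 143 rows with DESeq2. Without NNY11, which leaves NNY13 as the only left pool, 1605 rows passed, and without NNY13 none did (1139 at an unadjusted p under 0.05). The rule for naming genes of the interaction therefore named none. Over the libraries, ciliated, matrix, kidney and mesothelial sums of every pool lay below those of every single-stomach library, and liver and intestinal sums of every pool lay above. The kidney and mesothelial sums include ATP1B2 and MSLN, the most abundant tested members of those lists, and sums without them were not taken. The epidermal sum of NNY13 overlapped with single-stomach libraries, but most of it was KRT8. The part of neighbouring tissue in these differences was not tested.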

How the data were processed

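RNA was measured in 14 libraries, 4 of pools and 10 of single-stomach tissue. For 26940 rows, named by human UniProt entries (19415 reviewed), the authors deposited raw counts and, in a second table, a normalized signal. DESeq, Bowtie, Bowtie2 2.1.0, Trimmomatic and SAMtools 0.1.19 are listed, without their role, per the submitters' processing notes. The step that gave reads to rows, and its use of strand, is not given in the sources used here, so isoforms, paralogs and overlapping genes may share reads. Dividing counts by the deposited signal gave whole reads for 100% of values within 0.01 reads, and the count test on those reads called 7082 rows.

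Counts were tested with edgeR 4.0.16 in R 4.3.3 (quasi-likelihood, TMM factors, filterByExpr, side plus source, Benjamini-Hochberg 0.05 over 23271 rows). Log2 folds are pool minus single, with SE. CPM are TMM-scaled. Single genes were tested by exact two-sided permutation of source within side on log2(CPM + 0.5), with libraries of 1 title stem taken as independent. Figures were drawn with matplotlib 3.10.9 in Python 3.11.15. A simulation over 22908 rows recovered 29 of 100 rows with a 2-fold change and 88 of 100 with a 4-fold change, with 5 false calls. It drew independent counts per library, without the 2 sets of single-stomach libraries, shared stems or an outlying NNY13, and changed only rows above a minimum count. Its false calls and recovery therefore do not give the rates of the comparison itself.

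Of 871 symbols in 32 gene lists, 738 matched a row through entry names, and the most abundant reviewed row stood for each. The members compared and the lists were chosen with earlier results of these data known. Genes were named by rule: reviewed entries with mean CPM of at least 5, called with and without NNY13, the 12 largest in each direction; up to 4 called members per list by smallest p, or the 2 most abundant where fewer than 2 were called; and the 10 highest and 5 lowest ratios of NNY13 to the other pools. Any gene outside the rule was picked with its values in view. Some genes that the rule names are not reported here.

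Whether left and right libraries of 1 title stem share a stomach is not in the labels, so p-values reflect only how these libraries vary. With group means removed, each left library correlated with the right library of its title stem at 0.577 to 0.802 over 5 stems. The groups were set by side and source, so the gap between NNY1 to NNY6 and NNY7 to NNY10 stayed in these values. Left and right libraries of different stems were not compared in this way, so the correlations cannot decide whether stems pair libraries. Pairing by stem was assumed for 1 alternative, limma 3.58.1 (voom) with the stem as a block, each pool being its own level. Between libraries of 1 group, counts differed beyond sampling noise in all 22 pairs (15.6 to 219 chi-square units per degree of freedom), so none was treated as deposited repeatedly. Alternatives were DESeq2 1.42.0, limma on log2(signal + 1), other scalings, filters and thresholds, thinning to equal depth, no side term, 1 side or 1 set alone, each library left out, reviewed rows only and rows summed by entry. Recovered reads, and the fit with 3 library sets without NNY13, were chosen after seeing the data. Intervals of counting error are not given, and pooled animals limit what n = 4 covers.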

Additional observations from a re-analysis of the deposited data

Results flagged for a closer look

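Libraries that lay far from the rest of their group were sought in groups of 4 or 5 libraries by the gap to the nearest other library. Of 174 groups examined, 22 stood out, and chance gives about 1 in 20. A group in which only 1 library holds reads always stands out, so the 22 cannot be set against that share. Among sums of gene lists in CPM, NNY11 had 392.8 for skeletal muscle (other pools 213.7 to 223.6) and 1797 for foregut and stomach transcription factors (other pools 1409 to 1475). NNY13 had 354.1 for lung and thyroid genes (other pools 207.5 to 231.8), and in the same list NNY1 had 109.8 (other left single-stomach libraries 55.65 to 67.05). NNY9 had 2528 for histones (others 1800 to 2001). For immediate early genes NNY7 had 2071 (others 914.5 to 1162) and its partner in title, NNY8, had 2229 (others 910.1 to 1208). NNY7 also held the fewest rows with counts, 25617, against 25991 to 26070 in the other left single-stomach libraries.

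Single-stomach libraries stood out for genes that were higher in the pools. NNY2 had 52.1 CPM of APOA4 (other right libraries 0.267 to 6.33), 3 CPM of APOA5 (0.0501 to 0.283), 1103 CPM of APOA1 (145 to 237) and 106 CPM of APOC2 (3.96 to 21.3). NNY1, which shares its title stem, had 2.02 CPM of APOA5 (other left libraries 0.0519 to 0.355). NNY4 had 27.7 CPM of FABP6 (other right libraries 0 to 0.141) and 23.3 CPM of T4S4 (0.334 to 1.05), and NNY5 had 1.24 CPM of FABP6 (other left libraries 0 to 0.0652). The apolipoproteins were thus high in 1 right library and FABP6 and T4S4 in another. NNY4 also had 51.8 CPM of AHNK2 (others 35.1 to 38.9).

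Among the pools, VATB1 was at 1.97 CPM in NNY13 (others 0 to 0.0721). The other 4 rest on few reads: EFCB2 and SLAF5 at 0.0866 CPM each and ANKE1 at 0.433 CPM in NNY11, and MORN3 at 0.144 CPM in NNY14, each with no read in the other pools.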

How the results depend on the processing

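The count of 7082 called rows stayed within 1.5 times under other scalings, filters, tools and thinning (6766 to 8396 rows), against either set of single-stomach libraries alone (7491 and 7864), and with any library left out (5721 without NNY14 to 7048 without NNY8). It moved further with the replicate block by title stem (4704), with the left (2651) or right libraries (2614) alone, at an adjusted p of 0.01 (4129) and with a 2-fold minimum (4106). Without scaling, the split of higher against lower calls was 1881 to 5264, against 2955 to 4127, and the median log2 fold of all rows was -0.27. The interaction of source and side gave 0 rows with edgeR, 143 with DESeq2, and 0 to 1605 with a pool left out, the last without NNY11. Rows apart from both sets numbered 5625, and 5679 without NNY13.

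Of the 147 genes named or covered by the naming rule, 41 lost their call and 1 gained one in the left libraries alone, 38 lost and 2 gained one in the right libraries alone, and no gene reversed. DESeq2 gave no adjusted p for 9 of them. The median of cell cycle genes was -0.07 without scaling, against 0.12. Depth limits the genes at or near 0 in the pools, where 3 counts over the 4 pools correspond to 0.0508 CPM.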
